A study of Mus musculus with 6 samples.

Results

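The values described here are those of 10 genes of fast and general skeletal muscle, read in RNA of whole mouse adrenal glands. The genes are Acta1, Myh1, Myh4, Tnnt3, Tnni2, Tnnc2, Ckm, Mylpf, Atp2a1 and Pvalb. Every probe set was taken whose platform annotation names exactly 1 gene and that gene is among the 10. This gave 16 probe sets of the 12488 in the table, and each of the 10 genes had at least 1. A probe set is a group of short oligonucleotides that together query 1 transcript.

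Skeletal muscle fibres contract when actin filaments slide along myosin filaments. Calcium released inside the fibre binds the troponin complex on the actin filament, which frees actin for myosin, and a calcium pump returns the calcium to its store. Fast fibres carry their own forms of most of these proteins, and the adrenal gland, with a cortex that makes steroids and a medulla that makes catecholamines, holds no skeletal muscle fibres of its own. It lies beside the kidney, close to brown fat and to the muscles of the back.

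The samples were total RNA of adrenal glands from the hypertensive mouse strain BPH (for high blood pressure) and of the hypotensive strain BPL (for low), with 3 Affymetrix MG_U74Av2 arrays per strain. The sources used here give no age, sex or treatment. The labels number the arrays of a strain as replicates without saying whether they came from separate or pooled animals, so p-values measure only the spread between these samples. Intensities were deposited untransformed, without detection calls, and their 2% trimmed means lay between 2501.3 and 2501.5 on all 6 arrays. All arrays came from 1 chip lot. The run files place BPH 1 and BPH 2 on fluidics station 2 and the other 4 arrays on station 1.

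Cortex markers checked the tissue. Star, which carries cholesterol into mitochondria, lay between 86782 and 100622 in BPH and between 89642 and 98077 in BPL. The medulla gene Chga lay between 30376 and 38402 in BPH and between 14261 and 33136 in BPL. BPH 1 and BPL 2 stand apart from the other 4 arrays in the muscle genes, so results that rest on them are given with and without them.

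The stretches in front of 4 of these genes are shown. Of all windows found, only these hold a MEF2 motif or a CArG box, so they do not represent the others. Transcripts of the 10 genes mostly moved together from array to array, while Myh1 and a Myh4 probe set parted between BPH 1 and BPL 2. Each stretch is the 250 bases before the annotated start from RefSeq on GRCm38.p6. That is the C57BL/6J genome and not that of BPH or BPL. Windows were found for 8 of the 10 genes, with 9 windows in all, since Pvalb has a pair of starts. Tnnt3 and Tnni2 were not matched. Capitals mark E-boxes (CANNTG, the motif that MyoD-type factors read), MEF2 motifs and CArG boxes (read by serum response factor), searched on both strands. Each sequence runs 5′ to 3′ along the gene.
Acta1, chr8:123894776-123895025, minus strand: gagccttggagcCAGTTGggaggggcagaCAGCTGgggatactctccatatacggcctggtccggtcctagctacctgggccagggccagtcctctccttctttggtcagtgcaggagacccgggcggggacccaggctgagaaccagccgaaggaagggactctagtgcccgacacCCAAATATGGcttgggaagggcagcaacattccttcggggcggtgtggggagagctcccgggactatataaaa
Myh1, chr11:67199852-67200101, plus strand: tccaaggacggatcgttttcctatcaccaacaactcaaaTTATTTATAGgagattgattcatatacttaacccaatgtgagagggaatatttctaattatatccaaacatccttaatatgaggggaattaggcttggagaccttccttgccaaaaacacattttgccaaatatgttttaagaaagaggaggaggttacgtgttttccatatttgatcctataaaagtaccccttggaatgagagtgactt
Myh4, chr11:67237562-67237811, plus strand: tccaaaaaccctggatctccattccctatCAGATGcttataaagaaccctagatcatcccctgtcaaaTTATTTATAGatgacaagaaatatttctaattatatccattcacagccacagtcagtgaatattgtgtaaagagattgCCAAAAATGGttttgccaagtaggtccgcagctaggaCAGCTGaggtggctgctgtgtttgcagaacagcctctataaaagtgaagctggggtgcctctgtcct
Pvalb, chr15:78206401-78206650, minus strand: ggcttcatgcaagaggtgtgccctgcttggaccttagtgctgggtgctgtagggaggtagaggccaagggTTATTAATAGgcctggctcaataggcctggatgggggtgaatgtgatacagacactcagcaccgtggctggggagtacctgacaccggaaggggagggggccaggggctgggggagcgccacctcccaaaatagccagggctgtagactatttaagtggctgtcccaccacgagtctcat

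The Myh1 and Myh4 stretches each hold 1 MEF2 motif, and the Pvalb stretch printed holds 1 as well. Acta1 and Myh4 each hold 1 CArG box. A MEF2 motif stood in 3 of the 9 windows, against 2.92% of 32841 windows of the same length over all genes, and a CArG box in 2 of the 9, against 1.47%. An E-box stood in 7 of the 9 windows, but 66.2% of all windows hold one. TATAAA stood in 3 of the 9 windows against 12.4%, and 1 match each overlaps the MEF2 motif of Myh1 and of Myh4, while CATTCC, the MCAT motif, stood in 3 of the 9 against 12.6%. These matches describe letters in the windows and were not tested.

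Acta1 encodes skeletal actin, the body of the thin filament. Its intensity was 41852, 5529 and 1549 on BPH 1, 2 and 3, against 321, 62862 and 1833 on BPL 1, 2 and 3. One array of each strain was far above the others of that strain, and the strains overlapped. Within BPH the highest array stood 7.57-fold above the next, and within BPL 34.3-fold above the next. Actin genes are near-identical in their coding parts, so probes for Acta1 can also detect other actins.

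The fast troponins sit on the thin filament, and their highest arrays were again BPL 2 and BPH 1. Tnnt3, the subunit that binds tropomyosin, had intensities of 13638, 1043.5 and 437 on BPH 1, 2 and 3, against 88.7, 15909.7 and 549 on BPL 1, 2 and 3. Tnni2, the inhibitory subunit, had 2352.5, 125 and 42.3 on the BPH arrays in the same order, against 33.9, 3571 and 264 on the BPL arrays. For both genes BPH 1 and BPL 2 stood far above the other 4 arrays, of which BPH 2 was the highest for Tnnt3 and BPL 3 for Tnni2. A floor of 201.3, the 20th percentile of all values, replaced lower ones before log2, so that these have no order. Of the 6 arrays, 1 lay under it for Tnnt3 and 3 for Tnni2.

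Where a gene has a pair of probe sets, they are told apart here by the ending of their Affymetrix name. The ending f marks probes that may match a gene family, s probes shared by near-identical transcripts, i an incomplete set of probes and r relaxed design rules, and a plain name has no such mark. Tnnc2, the calcium-binding troponin subunit of fast fibres, has a probe set that follows this pattern and one that does not. Its f probe set had intensities of 14654, 2006 and 1007 on BPH 1, 2 and 3, against 1341.5, 17245.5 and 1175 on BPL 1, 2 and 3. Its plain probe set lay between 21.2 and 87.7 in BPH and between 45.5 and 100.9 in BPL, under the floor on all 6 arrays. It therefore gives no order for Tnnc2.

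The myosin heavy chains are the motors of the thick filament, and fast fibres differ in which one they use. Myh4, the IIb chain of the fastest glycolytic fibres, had intensities of 26197, 1565 and 197 on BPH 1, 2 and 3 at its plain probe set, against 38.6, 10514.6 and 239 on BPL 1, 2 and 3. BPH 1 was at least 130-fold above BPH 3, which lay under the floor. Myh1, the IIx chain of fast fibres with more oxidative capacity, had 1305, 228.5 and 166 on the BPH arrays, against 346, 16980.2 and 283 on the BPL arrays. Both genes were highest on BPH 1 and BPL 2, but Myh4 was higher on BPH 1 and Myh1 on BPL 2.

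The r probe set of Myh4 did not follow. Its intensity was 1159.9, 599 and 1391 on BPH 1, 2 and 3, against 969, 1844 and 1367 on BPL 1, 2 and 3. BPL 2 was its highest array but BPH 1 lay in the middle, and it spanned 1.22 log2 units within BPH and 0.93 within BPL, where the plain one spanned 7.02 and 5.71. Adult heavy chain genes are close in sequence, and which of the Myh4 probe sets reflects the Myh4 transcript was not tested.

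Mylpf encodes the regulatory light chain of fast myosin. The plain probe set had intensities of 4388, 1912 and 1136 on BPH 1, 2 and 3, against 1639, 4741 and 1418 on BPL 1, 2 and 3. The f probe set had 937.5, 269 and 23.8 on the BPH arrays, against 19.2, 981 and 15.2 on the BPL arrays. Both put the same arrays on top, although the plain one spanned the smaller range, 1.95 log2 units within BPH and 1.74 within BPL.

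Atp2a1 encodes SERCA1, the pump that returns calcium to the store of fast fibres. At the s probe set its intensity was 10829.7, 1681 and 335 on BPH 1, 2 and 3, against 592, 14508 and 768 on BPL 1, 2 and 3. At the f probe set it was 7803, 757 and 54.8 on the BPH arrays, against 63.6, 12669 and 457 on the BPL arrays. Both probe sets gave BPL 2 as the highest array, BPH 1 as the second and BPH 2 as the third.

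Pvalb encodes parvalbumin, a soluble calcium buffer of fast fibres that some neurons also make. The i probe set had intensities of 36142, 8893 and 4807 on BPH 1, 2 and 3, against 6485, 24402 and 5785 on BPL 1, 2 and 3. The f probe set of Pvalb had 3791, 256 and 204.5 on the BPH arrays, against 335, 1569 and 372 on the BPL arrays. Here BPH 1 stood above BPL 2 at both probe sets, by 1.48-fold and 2.42-fold, in contrast to most of the other genes.

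Ckm encodes muscle creatine kinase, which buffers ATP in the fibre. The f probe set of Ckm had intensities of 4948, 846 and 88.7 on BPH 1, 2 and 3, against 516, 4386.5 and 149 on BPL 1, 2 and 3. The plain one had 734, 659 and 1084 on the BPH arrays, against 1308, 1164.5 and 230.2 on the BPL arrays. The first has the pattern of the other muscle genes, while the second was highest on BPL 1 and lowest on BPL 3. Each of the 3 probe sets that departed from the pattern, in Ckm, Myh4 and Tnnc2, has a partner of the same gene that did not. For Ckm and Tnnc2 that partner is the f probe set, which may match a gene family.

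Across the 16 probe sets, 13, covering all 10 genes, had BPH 1 and BPL 2 above the other 4 arrays and above the floor. Ckm and Tnnc2 were covered by their f probe sets only. Over the tested probe sets of the whole table, 3.4% had this order, and over all probe sets but the controls 3.08%. The arrays were singled out from these same values, so the count is a description. In the 13 probe sets the lower of BPH 1 and BPL 2 was between 2.3 and 13.1 times the highest of the other 4 arrays. BPH 2 was the third array in 10 of the 13, with BPL 1 or BPL 3 in that place for Myh1, Tnni2 and 1 Pvalb probe set. Under the floor lay 1 of the 16 probe sets on BPH 1, 2 on BPH 2 and 7 on BPH 3, against 6 on BPL 1, 1 on BPL 2 and 3 on BPL 3. In bulk RNA, fewer muscle cells and less muscle RNA per cell cannot be told apart.

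The spread within a strain was large beside that of other probe sets. The median over the 16 of the gap between the highest and the lowest array was 3.70 log2 units within BPH and 4.01 within BPL, against 0.33 and 0.43 over all tested probe sets. The 16 include 4 that were not tested, so these sets differ in kind. Averaged over the 9 genes with a tested probe set, at the brightest one each, the log2 intensity was 13.43, 10.70 and 9.23 on BPH 1, 2 and 3, against 9.34, 13.79 and 9.60 on BPL 1, 2 and 3. BPH 2 lay between the high and the low arrays. The 2 high arrays were run on different fluidics stations, BPH 1 on station 2 and BPL 2 on station 1, and were the fourth and the second to be scanned.

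BPH 1 and BPL 2 differed from each other in which muscle genes were high. With 1 array of each kind there is no replicate check, and these ratios are a description. For 9 of the 13 probe sets BPL 2 was the higher array, and for 4 BPH 1. Several ratios of BPH 1 to BPL 2 were near 1, with 0.926 and 0.956 for Mylpf, 0.857 for Tnnt3, 0.85 for Tnnc2 and 1.13 for Ckm. Acta1 (0.666), Tnni2 (0.659) and Atp2a1 (0.746 and 0.616) were lower on BPH 1. Pvalb was higher on BPH 1 (1.48 and 2.42). The extremes were the heavy chains, with ratios of 2.49 for Myh4 at its plain probe set and 0.0768 for Myh1. Myh1 was thus 13.0-fold higher on BPL 2. The r probe set of Myh4, not among the 13, had a ratio of 0.629.

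Of the genes in the other muscle lists, 26 stood above the other 4 arrays on both BPH 1 and BPL 2. BPH 1 was the higher array for 9 of them and BPL 2 for 17, with ratios of BPH 1 to BPL 2 between 0.0752 and 1.71. In the sarcomere list 3 of 9 were higher on BPH 1 and 6 on BPL 2, in that of slow fibre and heart 1 of 3 and 2, in that of excitation 2 of 5 and 3, and in that of energy metabolism 3 of 8 and 5. At the low end stood Mb, the oxygen store myoglobin, with 479 on BPH 1 against 6373 on BPL 2. At the high end stood Actn3, an actinin of fast fibres, with 6319 against 3688, and the heart actin gene Actc1, with 15428 against 9192. Genes of the sarcomere list thus stood on both sides. Of the 3 genes of slow fibre and heart that stood above on both, only Actc1 was higher on BPH 1. It was read at an f probe set whose probes can match Acta1. Mb and Myl2 (ratio 0.289) were higher on BPL 2. Genes of that list without this order went both ways, with ratios of 1.66 for Tnnt1 and 0.593 for Tnni1. Ucp1, the uncoupling protein of brown fat, had 13301 on BPH 1 against 98186 on BPL 2, and the part of brown fat in these ratios was not tested.

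**Figure D1:**
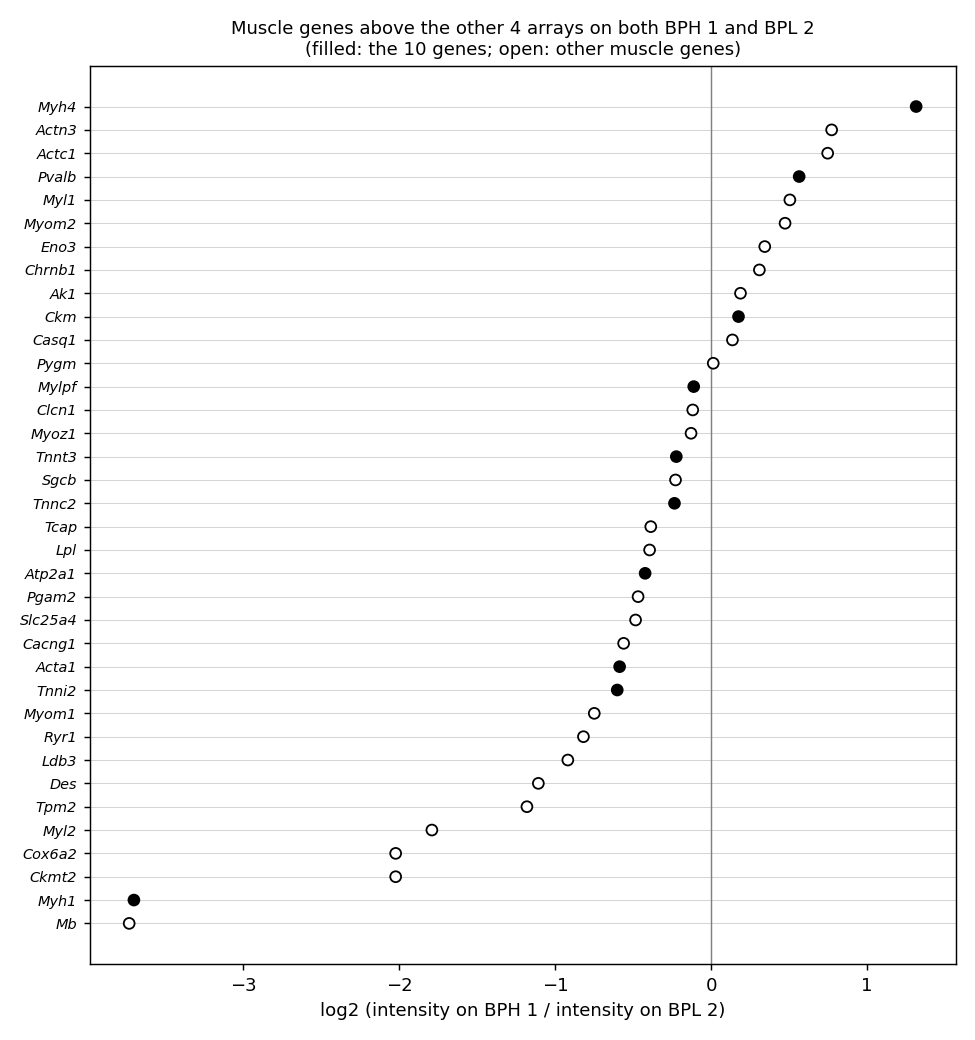
Log2 ratio of the intensity on BPH 1 to that on BPL 2 for each muscle gene whose brightest probe set was above the other 4 arrays on both (filled, the 10 genes; open, genes of the other muscle lists), 1 point per gene. Myh4 lies at the right end with a ratio of 2.49, and Myh1 at 0.0768 and Mb at 0.0752 lie at the left.

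The comparison of the strains asks which adrenal transcripts differ between hypertensive and hypotensive mice. No muscle probe set passed the test. Of the 16, 12 probe sets of 9 genes passed the filter on low values (a mean log2 intensity at or above that of the 40th percentile of the table, 668.1) and were tested, while 1 probe set each of Mylpf, Pvalb, Tnnc2 and Tnni2 was not. With limma 0 of the 12 were called at an adjusted p under 0.05, against 2.52% of all 7293 tested probe sets, and 0 had an unadjusted p under 0.05. Their adjusted p-values lay between 0.532 and 0.997. Without the filter, which tests all 16, 0 were called, against 0.419% of 12422 (0.258% higher and 0.161% lower in BPH), and the lowest adjusted p was 0.682.

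The differences, BPH minus BPL on the log2 scale, were positive for 8 of the 12 and negative for 4. Their median was 0.12, beside 0.03 over all tested probe sets. The largest in size was -1.60 for Myh1 (SE 1.44, adjusted p = 0.576), while its intensity averaged 566 ± 640 over the BPH arrays and 5870 ± 9622 over the BPL arrays (SD, n = 3 each, limma). Myh4 at its plain probe set differed by 1.34 (SE 1.86, adjusted p = 0.735), and averaged 9320 ± 14632 over the BPH arrays and 3598 ± 5991 over the BPL arrays (SD, n = 3 each, limma). Acta1 differed by 1.09 (SE 1.77, adjusted p = 0.777), and averaged 16310 ± 22209 over the BPH arrays and 21672 ± 35679 over the BPL arrays (SD, n = 3 each, limma). For Acta1 the mean intensity and the mean log2 value thus differ in direction. In each of these genes the SD exceeded the mean in both strains.

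The other 9 tested probe sets had differences between -0.45 (the r probe set of Myh4, SE 0.36) and 0.61 (Tnnt3, SE 1.63). Pvalb differed by 0.25 (SE 0.74), Tnnc2 by 0.04 (SE 1.15), and Ckm by 0.30 (SE 1.28) and 0.19 (SE 0.62) at its 2 probe sets. Mylpf differed by -0.07 (SE 0.55), and Atp2a1 by -0.04 (SE 1.40) and 0.01 (SE 1.62). The median SE of the 12 was 1.34, against 0.18 over all tested probe sets, so a difference of the size of most SEs would not have been detectable. For 0 of the 16 probe sets did the BPH arrays lie wholly above or below the BPL arrays, a separation that 26.5% of all tested probe sets showed. A probe set with BPH 1 and BPL 2 as its highest arrays cannot separate. For most of the 16 this is therefore no further result.

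The residual SD is the spread of arrays around their strain mean on the log2 scale. It ranked most tested muscle probe sets among the most variable of the 7293 tested. The plain probe set of Myh4 had the highest of all 7293, 3.38, followed by Acta1 (3.23), Tnnt3 (2.96) and the f probe set of Atp2a1 (2.93). Of the 20 largest residual SDs, 9 belonged to the muscle genes, and of the 100 largest, 11. Their median was 2.42, against 0.22 over all tested probe sets. The 1 tested probe set outside the 100 was the r probe set of Myh4 (0.56). Myh1 lay at 228.5 and 166 on BPH 2 and 3 and at 346 and 283 on BPL 1 and 3, under the filter intensity of 668.1. Tnnt3 and the plain probe set of Myh4 also lay under it on BPH 3, BPL 1 and BPL 3. So did the f probe sets of Atp2a1 and Ckm. Probe sets this dim on several arrays are tested only if high on the rest. Their ranks, and the counts that include them, thus follow in part from the filter. The tested probe sets of Tnnc2, Pvalb and Mylpf lay above 668.1 on every array. The genes were chosen with earlier results of these data known, so the ranks are a description.

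Single arrays set the direction of the strain difference. Without BPH 1, 11 of the 12 differences were negative, with a median of -0.72. Without BPL 2, 11 were positive, with a median of 1.37. The difference of Acta1 was -0.19 without BPH 1 and 3.21 without BPL 2, and that of Tnnt3 was -0.84 and 2.47 in the same order. Without both arrays the median was 0.27, with 9 positive and 3 negative, 0 of the 12 were called (smallest adjusted p = 0.342, limma) and 1.69% of all probe sets were. The largest residual SD among the 12 was then 1.56 and the median 1.04, against 0.18 over all tested probe sets, so part of the spread remained on the other 4 arrays, where BPH 2 was the highest in most genes. Within station 1, which sets BPH 3 alone against the 3 BPL arrays and assumes that it varies as they do, 10 of the 12 were negative, with a median of -1.52 and a smallest adjusted p of 0.807 (limma).

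**Figure D2:**
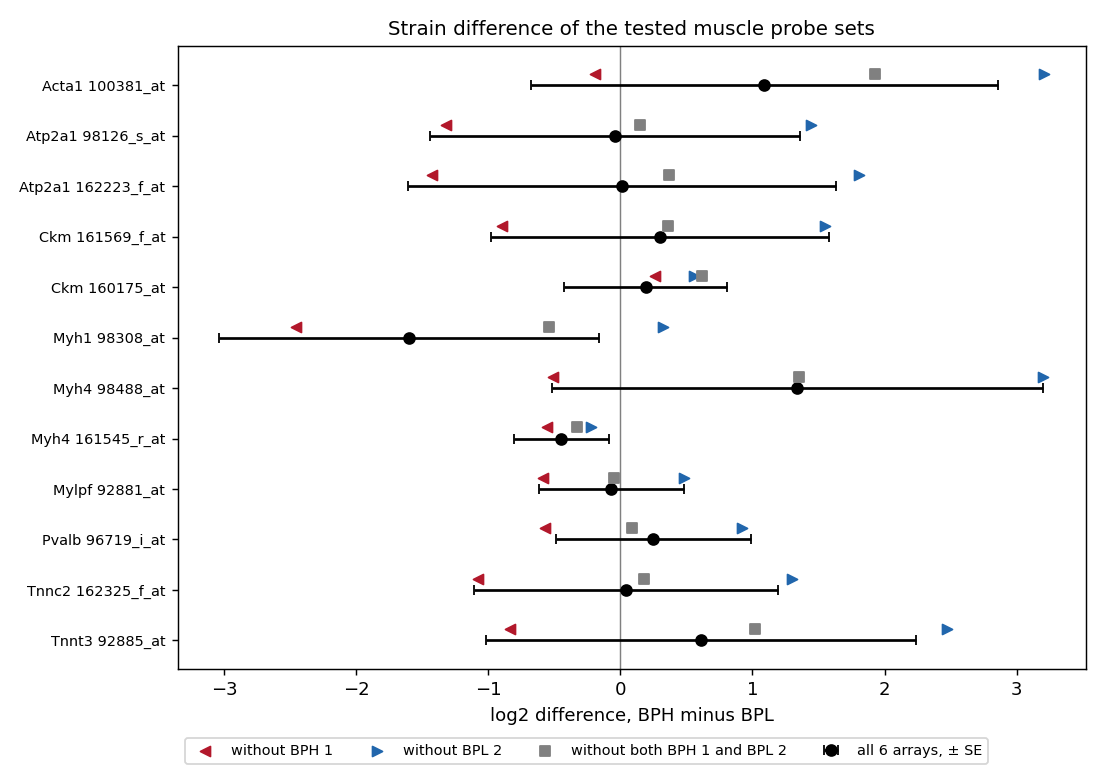
Log2 difference, BPH minus BPL, of the 12 tested muscle probe sets with all 6 arrays (black, bars ± SE) and without BPH 1 (red), without BPL 2 (blue) and without both (grey). Most differences lie below 0 without BPH 1 and above 0 without BPL 2.

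The genes whose pattern was most like that of the muscle genes were ranked by Pearson's r over the 6 arrays with the mean of the 9 tested genes, among 1291 other genes that spanned at least 1 log2 unit. All points share the 2 high arrays, and r describes little more than those. Myl1 came first (r = 0.986), then the muscle enolase gene Eno3 (0.960), the heart actin gene Actc1 (0.956), the cytochrome oxidase gene Cox6a2 (0.934), Actn3 (0.928) and Casq1 (0.912), which encodes the calcium-binding protein of the store. The Actc1 probe set carries the ending f, and its probes can match Acta1. Myoz1, a protein of the Z-disc that anchors the thin filaments, came eighth (0.861). The remaining 5 are in none of the muscle lists, namely Pde4dip (0.862), which encodes myomegalin, the ribosomal protein gene Rps13 (0.835), the protease gene Capn1 (0.822), the kinase gene Srpk1 (0.812) and Ngdn (0.754). Of the 12, 11 stood above on BPH 1 and BPL 2, with Ngdn the exception.

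Casq1 had intensities of 6107, 2404.5 and 1653 on BPH 1, 2 and 3, against 632, 5539 and 1498.5 on BPL 1, 2 and 3, and Eno3 had 10329.8, 4420.2 and 4069.7, against 3404, 8159 and 3784. Both were highest on BPH 1 and BPL 2, followed by BPH 2, over a smaller range. Eno3 spanned 1.60 log2 units over the 6 arrays and Casq1 3.27, where the median over the 9 muscle genes was 5.44 and over all tested probe sets 0.69.

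Lists of other muscle genes were read the same way, at the brightest probe set of each gene, and the genes named from them below the 4 brightest were picked after their values were seen. Of 25 further sarcomere genes measured, 9 stood above the other 4 arrays on both BPH 1 and BPL 2, among them Myl1, Tpm2, Des and the titin cap gene Tcap, against 3.08% of all probe sets. Of 18 genes of excitation and calcium release 5 did, including Casq1 and Ryr1, the calcium release channel, which had 1618, 312 and 29.9 on BPH 1, 2 and 3, against 189.7, 2855 and 317 on BPL 1, 2 and 3. Of 28 genes of muscle energy metabolism 8 did, including Pgam2, the muscle phosphoglycerate mutase, with 1516, 63.4 and 41.6, against 52.3, 2098 and 58.9. In each of these lists most measured genes did not have this order.

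Of 25 genes of slow fibres and heart measured, 3 stood above on both arrays, namely Actc1, Mb and Myl2, beside the 3.08% of all probe sets. Whether this share differs from those of the other lists was not tested. The slow heavy chain gene Myh7 was highest on BPH 2, with 265, 1069 and 441 on BPH 1, 2 and 3, against 407, 463 and 384 on BPL 1, 2 and 3, and the slow light chain gene Myl3 lay under the floor on all 6 arrays. Of 17 regulators of muscle formation 0 did, and Myod1, the factor that starts the muscle programme, had 1909.9, 2149 and 2291, against 2990.5, 2651 and 1795. Of 12 genes of the dystrophin complex 1 did, Sgcb, and of 14 smooth muscle genes 1 did, Des, which skeletal muscle also makes.

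Few genes in these lists differed between the strains. None of the tested genes was called among 12 sarcomere, 12 slow fibre and heart, 7 excitation, 6 dystrophin complex, 8 regulator and 12 smooth muscle genes, where 2.52% of all probe sets were. Among 20 tested genes of muscle energy metabolism 0 were called higher and 3 lower in BPH, where 0.96% of all probe sets were called lower. They were Gpd1 (-1.91, SE 0.36, adjusted p = 0.0319, limma), a glycerol phosphate dehydrogenase, Idh3a (-0.93, SE 0.19, adjusted p = 0.0376, limma), of the citric acid cycle, and Ucp3 (-1.71, SE 0.28, adjusted p = 0.0178, limma), an uncoupling protein. None of the 3 stood above on both BPH 1 and BPL 2, and brown fat expresses them as well.

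Markers of other tissues on the same arrays are given beside the muscle values. The summed intensity of 6 brown fat markers was 67459, 39199 and 53923 on BPH 1, 2 and 3, against 145309, 305888 and 102765 on BPL 1, 2 and 3, so BPH 1 and BPL 2 were each the highest of their strain. In contrast to the muscle genes, every BPL array stood above every BPH array in this sum, and 0 of 8 measured markers stood above the other 4 arrays on both. Of the 6 tested, 1, Ucp1, was called, lower in BPH (-2.68, SE 0.41, adjusted p = 0.0137, limma), where 2.52% of all tested probe sets were called, 1.56% higher and 0.96% lower in BPH. Of 10 fat genes 2, Adipoq and Lpl, stood above the other 4 arrays on both BPH 1 and BPL 2, and 1, the lipase gene Lipe, was called lower in BPH (-1.25, SE 0.25, adjusted p = 0.0376, limma). Of 11 medulla genes 1, the enkephalin gene Penk, was called, higher in BPH (0.61, SE 0.13, adjusted p = 0.0472, limma), and of 10 cortex and 2 blood genes 0 were. The r of the mean log2 value with that of the muscle genes over the 6 arrays was 0.34 for brown fat, 0.53 for general fat, -0.34 for cortex and -0.35 for medulla markers.

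The summed intensity of 10 cortex genes lay between 680001 and 794140 in BPH and between 684248 and 748936 in BPL, and was second lowest on BPL 2. That of 11 medulla genes lay between 266380 and 328905 in BPH and between 152050 and 305365 in BPL, highest on BPH 1 and lowest on BPL 2. In this sum the 2 arrays high in muscle transcripts were thus at opposite ends. In the mean log2 value of the same 11 genes BPL 2 was again lowest (12.67). There BPL 3 was highest (13.90), with BPH 1 at 13.78. The summed intensity of 12 smooth muscle genes lay between 28279 and 34323 in BPH and between 28001 and 34704 in BPL. For blood r was 0.89, from the mean of 2 tested genes, and 1 of 4 measured blood genes, Alas2, stood above on both BPH 1 and BPL 2. Hba-a1, a haemoglobin chain, had 72134, 68590.2 and 70697 on BPH 1, 2 and 3, against 60118, 97322 and 72524 on BPL 1, 2 and 3, a range of 0.69 log2 units, which is the median range of all tested probe sets. It was highest on BPL 2, while BPH 1 lay below BPL 3. The part of these tissues in the muscle values was not tested.

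**Figure D3:**
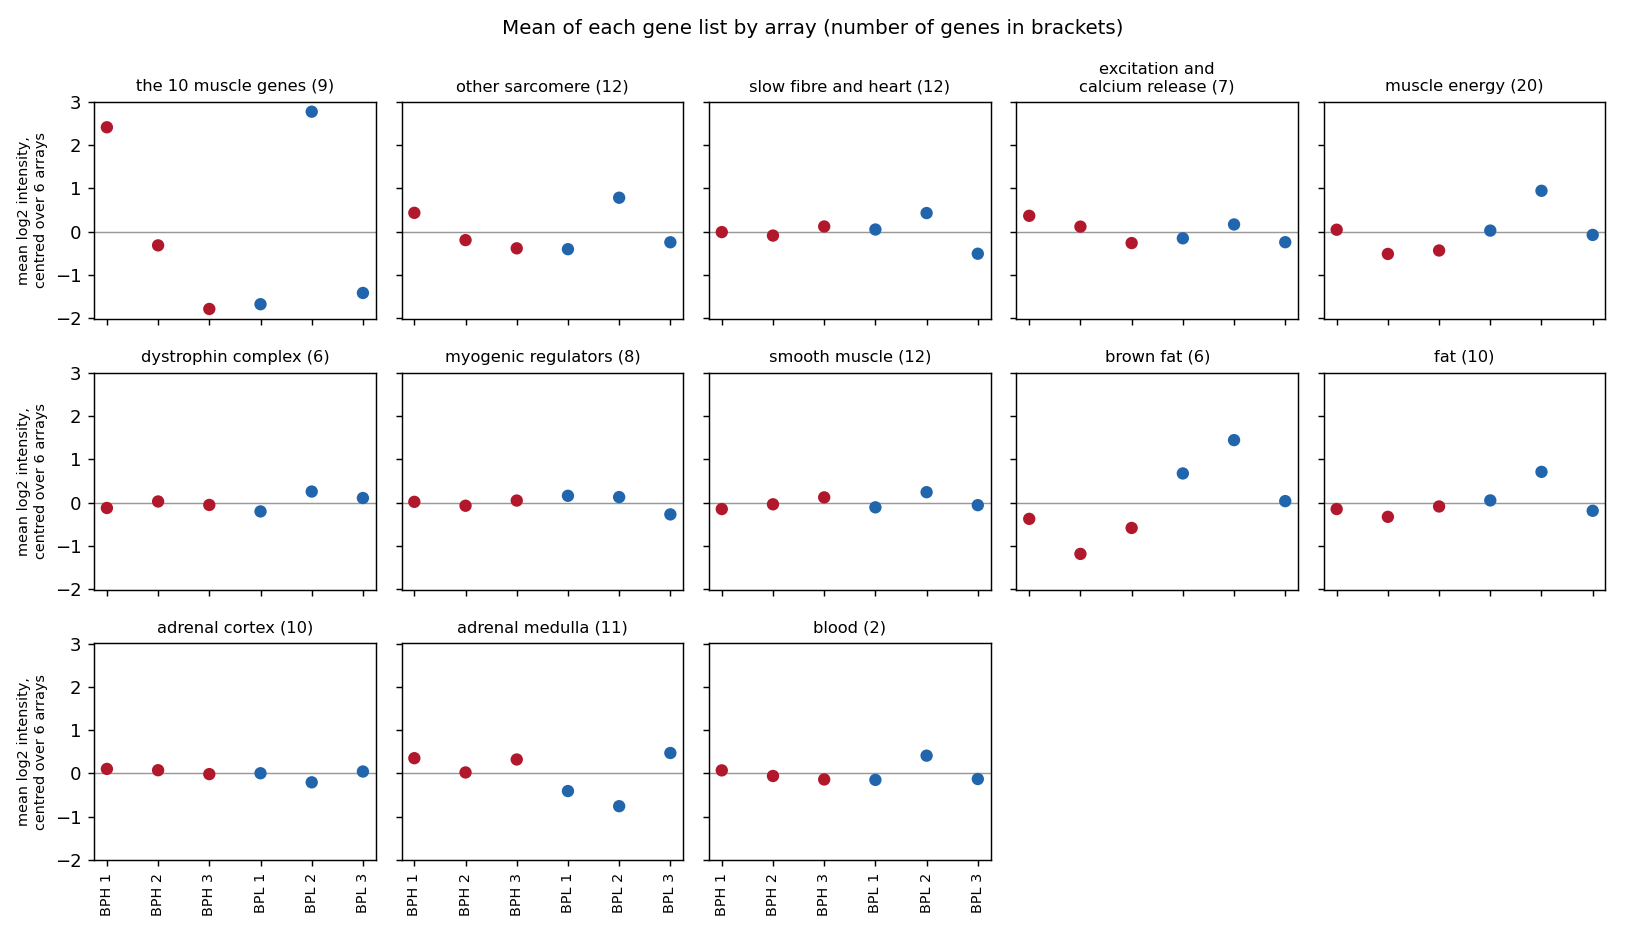
Mean log2 intensity of each gene list on each array, centred on its mean over the 6 arrays (BPH red, BPL blue), with the number of tested genes in brackets. The muscle genes span from 9.23 on BPH 3 to 13.79 on BPL 2 before centring, while the cortex mean lies between 15.06 and 15.37.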

How the data were processed

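Per the file headers, the samples were run on MG_U74Av2 arrays, and those run files hold no measurement. The deposited intensity values, 1 per probe set and array, had nearly equal trimmed means on all arrays. How the authors scaled them, and with which software, was not given in the sources used here. They were not scaled again, but floored at 201.3, the 20th percentile, and taken to log2. Differences of dim probe sets are therefore understated. The 66 control probe sets and those with a mean log2 value under that of the 40th percentile (668.1) were left out of the test, which left 7293. The strains were compared in R 4.3.3 with limma 3.58.1 (lmFit, then eBayes with a trend on intensity), two-sided, with Benjamini-Hochberg adjustment over all tested probe sets. The fit was tested on simulated data.

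The platform annotation gives 10855 probe sets a single gene, 396 more than 1, and leaves 1237 unnamed. Current symbols came from RefSeq (GRCm38.p6) through the gene number, which matched 10839. The genes to be named were the 10 with every probe set, up to 4 tested genes of each other list with the highest mean intensity, and the 12 most alike over the arrays. Further genes were picked after their values were seen, among them Mb, Myl2, Ryr1, Pgam2, Tcap, Myh7, Myl3, Myod1 and Sgcb. Alternatives covered the scaling, floor, filter, trend, blocks and arrays left out. The genes and lists were chosen with earlier results of these data known. Some lists share genes, such as Des, Cav3, Cox7a1 and Lpl. The number of arrays limits the precision.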

Additional observations from a re-analysis of the deposited data

How the results depend on the processing

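Under all 18 alternatives 0 muscle probe sets were called, and the smallest adjusted p for 1 of them was 0.248 (limma). Leaving out both BPH 1 and BPL 2 was chosen after seeing the data. The median range of the muscle probe sets under other scalings and floors stayed between 3.34 and 4.04 log2 units within BPH and between 3.69 and 4.24 within BPL. The direction of the strain difference was less stable, with 166 of 209 single values in the direction of the full data and 43 in the other. A station block, like the comparison inside station 1, leaves BPH 3 against the BPL arrays. The log2 difference then was -1.10 for Acta1, -1.93 and 0.62 for Ckm (f and plain), and -2.39 and -2.49 for Atp2a1 (f and s). It was -1.58 for Tnnc2, -1.46 for Tnnt3, -1.01 for Pvalb, -0.97 for Mylpf and -2.56 for Myh1. For Myh4 it was -1.99 (plain) and 0.05 (r). With an offset in place of the floor the log2 difference was -0.06 for the f probe set of Atp2a1. Without both BPH 1 and BPL 2 it was 0.15 for the s probe set of Atp2a1. When 1 array was left out it ran from -0.60 to 3.21 for Acta1, from -0.61 to 0.64 and from -0.90 to 1.55 for Ckm (plain and f), from -1.43 to 1.81 and from -1.32 to 1.44 for Atp2a1 (f and s), from -1.08 to 1.30 for Tnnc2, from -0.59 to 0.48 for Mylpf, from -0.84 to 2.47 for Tnnt3, from -0.57 to 0.92 for Pvalb, from -2.63 to 0.32 for Myh1 and from -0.51 to 3.20 for the plain probe set of Myh4. Over all tested probe sets 184 were called, against 52 with no filter, 83 without the intensity trend, 18 under the station block and 7 inside station 1. Leaving out 1 array gave 42 to 361, of which BPH 1 gave 83, BPH 2 gave 42, BPH 3 gave 49, BPL 1 gave 94 and BPL 3 gave 361. The cause was not tested. Arrays of the same number did not deviate together (correlations of -0.219, -0.084 and 0.012). This cannot exclude a pairing by number, about which the labels say nothing. With the replicate number as a block 124 probe sets were called, 0 of them muscle probe sets, with the same median difference of 0.12.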
